A study of Homo sapiens with 2 samples.

Results

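The 44 genes described here encode the core of homologous recombination and of the Fanconi anaemia pathway, which were taken as a fixed list of named genes and matched to RefSeq by symbol. All 44 were found among 20037 protein-coding genes on chromosomes 1 to 22, X and Y. Their accessibility was read from DNase-seq of Saos-2 and of U2OS, both cell lines long established from human osteosarcomas, with 1 library for each. In DNase-seq, DNase I cuts DNA in open chromatin, and stretches with many cuts are called as hotspots. The labels describe each sample by its cell line alone. As background, both lines lack telomerase activity and maintain their telomeres by recombination, the process called alternative lengthening of telomeres.

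Homologous recombination repairs a broken chromosome by copying an intact one. The MRE11-RAD50-NBN complex binds the broken ends and activates the kinase ATM, nucleases expose single-stranded DNA, and BRCA1, PALB2 and BRCA2 act on it before it pairs with the intact copy. Helicases and structure-specific nucleases then separate the joined molecules. The Fanconi pathway acts on crosslinks between the strands of DNA: a core complex ubiquitylates FANCD2 and FANCI, which brings nucleases to the lesion. Several of these proteins are also known at the telomeres of cells that use recombination there.

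The Saos-2 list held 51556 hotspots and the U2OS list 63388, 1.23-fold as many, and read depth is unknown for both. Of the Saos-2 hotspots 120, and of the U2OS hotspots 152, lay within 10 kb of the span of a member gene, and 100 and 127 lay at a start, inside the gene or within 1 kb of its span. Each hotspot carries the authors' −log10 significance, called significance below, which runs from 1.3 to a cap of 100. As a check of the labels, 6 mesenchymal and osteoblast genes were inspected. RUNX2 and VIM had a promoter hotspot in both lines, COL1A1 in U2OS only, and SP7, COL1A2 and TWIST1 in neither. Among genes of other cell types, CD3E had a promoter hotspot in both lines and KRT5 in U2OS only, while PTPRC, EPCAM and ALB had none. RUNX2, the osteoblast regulator, had 12.5 in Saos-2 and 1.59 in U2OS, so these few calls only partly match lines from osteosarcomas.

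The promoters of the 44 genes were nearly all accessible in both lines. A promoter hotspot is one that overlaps the window of 1 kb on either side of a RefSeq start. For the 6 genes without a RefSeq start in the table used (NBN, WRN, RECQL4, RAD54B, RMI2 and FANCI), either end of the gene was used instead. A promoter hotspot was called for 41 genes in Saos-2 (93.2%, 95% Wilson interval 81.8 to 97.7%) and for 42 in U2OS (95.5%, 84.9 to 98.7%), against 48.1% and 53.5% of all protein-coding genes. The 41 genes of Saos-2 were all called in U2OS too, which makes 41 called in both lines, against 43.3% of all genes. RAD51D was the 1 gene called in U2OS only, a class that held 10.1% of all genes. No member was called in Saos-2 only, against 4.79%, and RAD51B and FANCD2 were called in neither, against 41.8%. Among the 38 genes with a RefSeq start, 35 were called in both lines, against 46.3% of all genes with such a start. Of the other three, 1 was called in U2OS alone (9.54% of all such genes), 0 in Saos-2 alone (4.78%) and 2 in neither (39.3%). The intervals cover counting error only, and with 1 library per line no difference between the lines has a replicate error or a test.

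**Figure D1:**
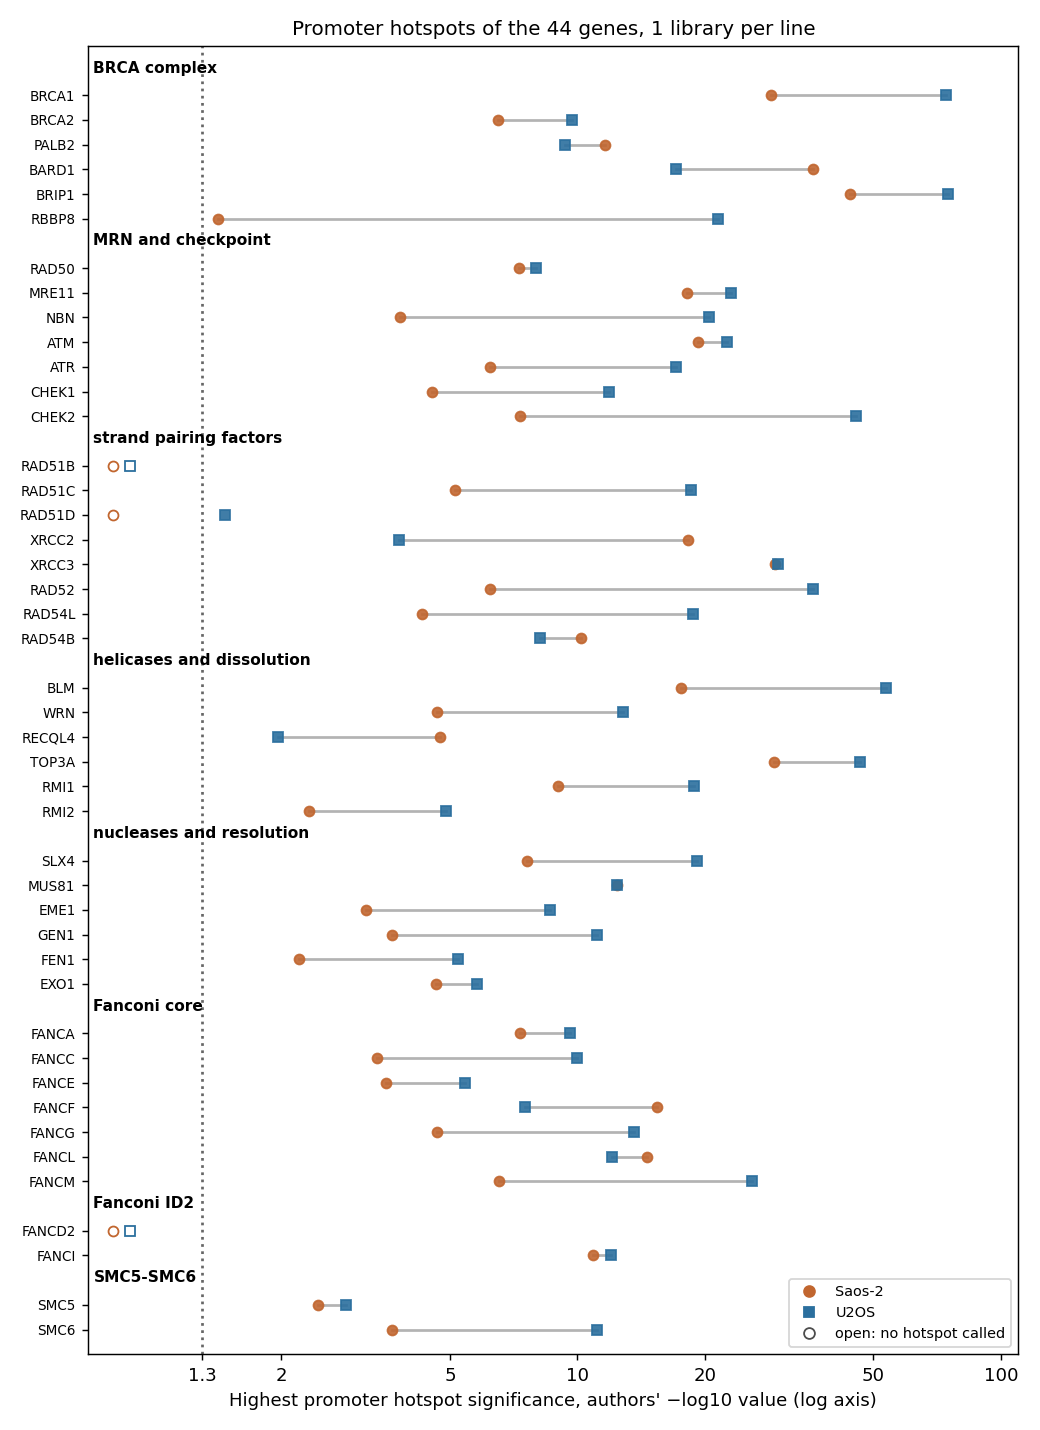
Highest significance of the promoter hotspots of each gene (authors' −log10 value, log axis) in Saos-2 (circles) and U2OS (squares), 1 library per line, grouped by the role of the protein; open symbols left of the dotted line at 1.3, the lowest value in the lists, mark genes with no promoter hotspot. For 33 of the 41 genes called in both lines the U2OS value is the higher one, and RBBP8 and XRCC2 lie farthest apart in opposite directions.

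The hotspots sat close to the annotated starts. Among the 38 members with a RefSeq start, 35 had a promoter hotspot in Saos-2, and the strongest one covered a start for 30 of them. In U2OS the strongest one covered a start for 33 of 36. Its centre lay a median of -91 bp from the nearest start in Saos-2 and -80 bp in U2OS, where a minus sign is upstream. MUS81 stood out in both lines, since its strongest hotspot was centred at -931 bp from the start in Saos-2 and at -879 bp in U2OS, while a weaker one covered the start. In both lines, however, the strongest MUS81 hotspot covered the outer 5′ end of the gene span, at 65859674, which was not counted as a start. BRCA2 also had its strongest hotspot beside the start in both lines, centred 446 bp downstream in Saos-2 and 373 bp in U2OS.

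**Figure D2:**
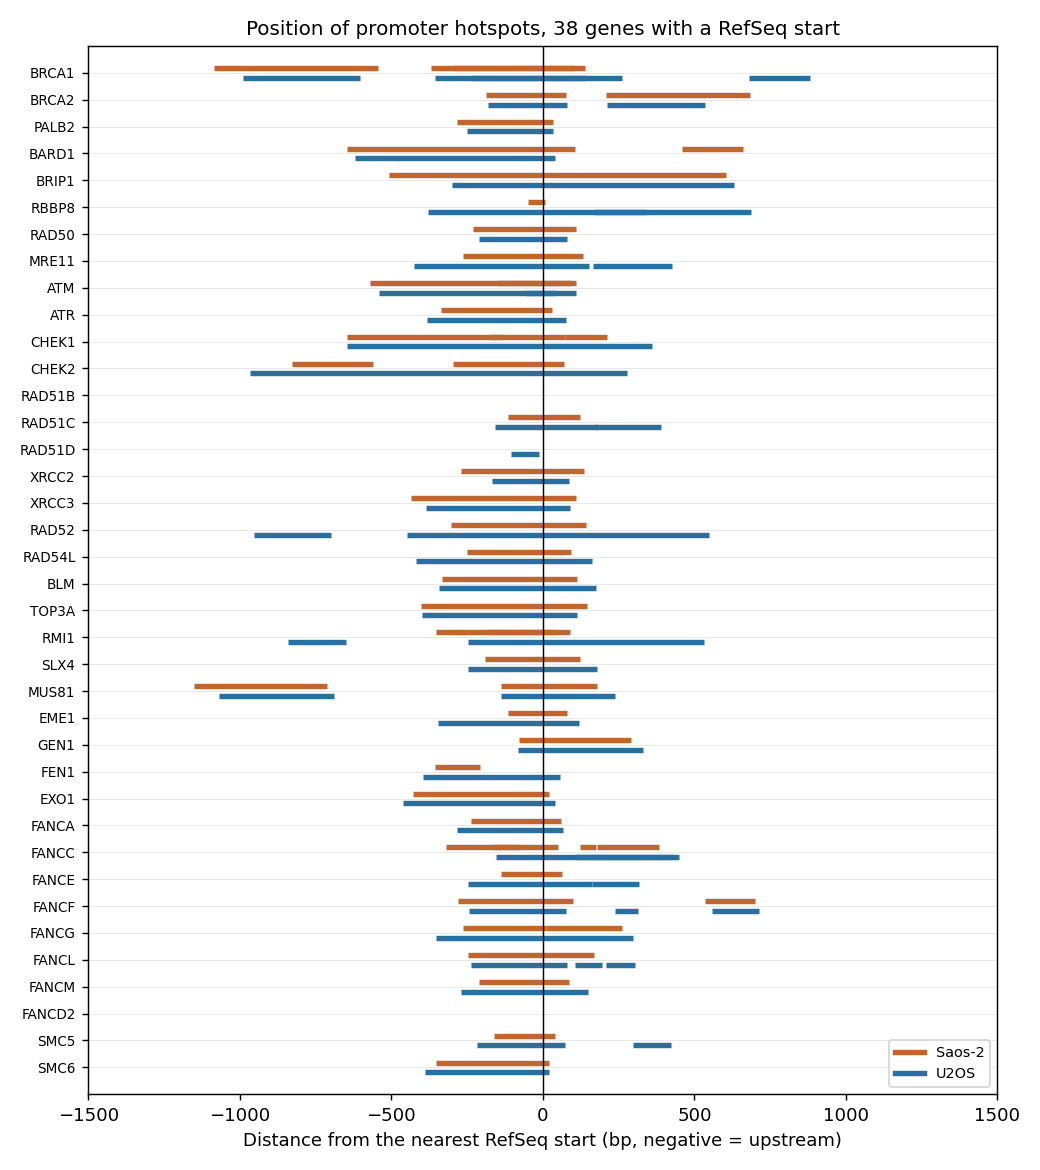
Promoter hotspots of the 38 genes with a RefSeq start, drawn by distance in bp from the nearest start (negative is upstream), with Saos-2 in orange and U2OS in blue; for genes with several starts, hotspots at different starts are drawn on the same line. Most hotspots cover the start, RAD51B and FANCD2 have none, and RAD51D has a single narrow U2OS hotspot.

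The promoter sequences of 6 genes are shown because their hotspots span the range of the data, from the strongest promoters of the set to one with none. Each is the 250 bases before a RefSeq start (RefSeq sequence, GRCh38.p14), 5′ to 3′ on the strand of the gene, with capitals for any of the motifs searched (E2F, CCAAT, CRE, NRF1, ETS and SP, described further on). BRIP1 is chr17:61863529-61863778, minus strand. BRCA1 is chr17:43125365-43125614, minus strand. RBBP8 is chr18:22933078-22933327, plus strand. XRCC2 is chr7:152676142-152676391, minus strand. RAD51D is chr17:35119861-35120110, minus strand. FANCD2 is chr3:10026187-10026436, plus strand.
BRIP1: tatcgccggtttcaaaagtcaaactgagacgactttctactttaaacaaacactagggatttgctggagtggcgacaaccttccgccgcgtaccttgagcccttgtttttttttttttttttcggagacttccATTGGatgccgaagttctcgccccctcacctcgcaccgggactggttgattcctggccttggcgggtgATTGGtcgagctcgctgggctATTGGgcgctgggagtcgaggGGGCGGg
BRCA1: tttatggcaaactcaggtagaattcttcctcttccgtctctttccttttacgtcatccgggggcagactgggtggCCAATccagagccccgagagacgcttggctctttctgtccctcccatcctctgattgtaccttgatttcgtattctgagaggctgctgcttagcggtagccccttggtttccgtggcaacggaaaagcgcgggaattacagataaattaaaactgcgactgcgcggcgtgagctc
RBBP8: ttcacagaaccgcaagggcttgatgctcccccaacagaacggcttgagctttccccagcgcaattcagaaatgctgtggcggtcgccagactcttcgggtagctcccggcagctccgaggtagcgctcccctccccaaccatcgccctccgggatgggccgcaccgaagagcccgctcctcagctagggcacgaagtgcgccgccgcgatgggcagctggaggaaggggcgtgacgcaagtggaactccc
XRCC2: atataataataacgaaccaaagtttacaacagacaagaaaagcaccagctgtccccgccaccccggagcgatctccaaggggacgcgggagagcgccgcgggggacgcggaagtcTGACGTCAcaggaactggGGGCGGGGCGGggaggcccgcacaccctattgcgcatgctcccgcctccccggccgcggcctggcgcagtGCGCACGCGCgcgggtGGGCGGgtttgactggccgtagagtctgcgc
RAD51D: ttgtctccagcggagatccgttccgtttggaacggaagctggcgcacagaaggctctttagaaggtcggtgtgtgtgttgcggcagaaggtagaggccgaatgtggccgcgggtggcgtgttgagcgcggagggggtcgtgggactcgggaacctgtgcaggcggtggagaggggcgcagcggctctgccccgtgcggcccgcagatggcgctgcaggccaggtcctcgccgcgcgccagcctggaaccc
FANCD2: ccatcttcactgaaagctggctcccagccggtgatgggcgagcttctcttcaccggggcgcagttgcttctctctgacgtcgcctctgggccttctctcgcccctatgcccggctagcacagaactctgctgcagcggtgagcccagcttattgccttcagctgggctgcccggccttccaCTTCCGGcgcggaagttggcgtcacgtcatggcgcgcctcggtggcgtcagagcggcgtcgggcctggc

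All 250 of the BRIP1 bases and all 250 of the BRCA1 bases lay inside a hotspot in both lines. Of the RBBP8 bases, 48 lay inside a hotspot in Saos-2 and 250 in U2OS. For XRCC2 the order was opposite, with 250 bases in Saos-2 and 167 in U2OS. RAD51D had 0 bases in Saos-2 and 93 in U2OS, and FANCD2 had 0 in both. GC content was 54% for BRIP1, 52.4% for BRCA1, 65.2% for RBBP8, 66.8% for XRCC2, 68% for RAD51D and 66% for FANCD2. Whether GC content goes with coverage was not tested, since these genes were chosen by their hotspots. XRCC2, with 66.8% GC, had all 250 bases inside a hotspot in Saos-2 but 167 in U2OS, and 1 gene cannot decide that question. BRIP1 held 3 CCAAT matches, read as ATTGG on the strand shown, which began at -117, -49 and -28 from the start, and 1 SP match. BRCA1 held 1 CCAAT match at -175. XRCC2 held a CRE at -135, an NRF1 match at -47 and 3 SP matches. FANCD2 held 1 ETS match at -69. RBBP8 and RAD51D held none of these letters in the bases shown.

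Promoter significance was higher in U2OS for 33 of the 41 genes called in both lines (80.5%, interval 66.0 to 89.8%), against 66.0% of all genes with a promoter hotspot in both lines. The difference was at least 2-fold in that direction for 21 genes (51.2%, 36.5 to 65.7%), against 27.8%, and at least 2-fold towards Saos-2 for 4 genes (9.76%, 3.86 to 22.5%), against 8.53%. The ratio of U2OS to Saos-2 had a median of 2.10 for the members and 1.32 over all genes with both. Relative to that all-gene median, 25 of the 41 members (61.0%) had a larger ratio. The median significance of the members was 6.54 in Saos-2, below the all-gene median of 7.73, and 12.4 in U2OS, above the all-gene median of 10.4. Promoter hotspots were also wider in U2OS for 29 of the 41 genes (70.7%), against 59.9% of all genes. Higher significance in U2OS is thus part of the whole list, and depth and accessibility cannot be told apart in it.

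**Figure D3:**
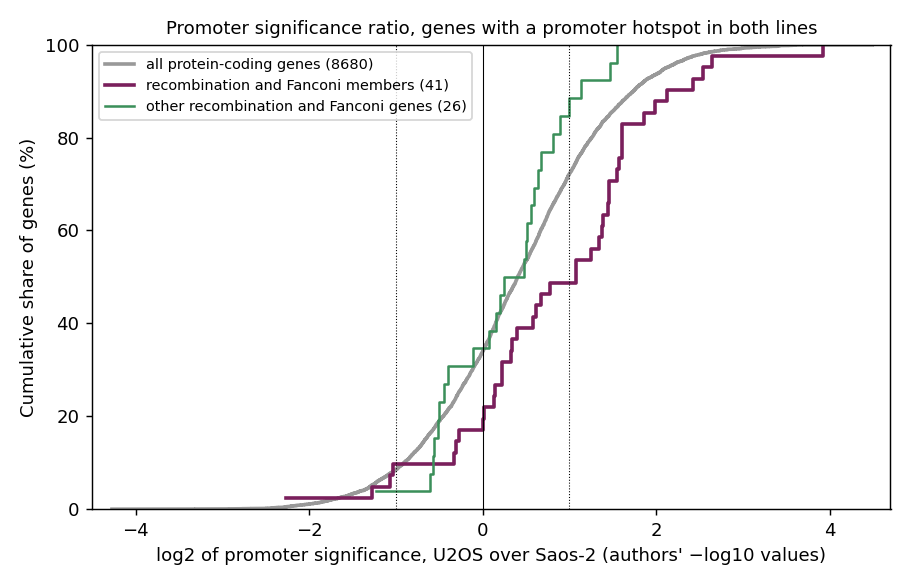
Cumulative share of genes (%) by the log2 ratio of promoter significance, U2OS over Saos-2, for all protein-coding genes called in both lines (grey), the recombination and Fanconi members (purple) and other genes of these pathways (green); dotted lines mark 2-fold in either direction. The members' curve lies to the right of the grey curve through its middle, with a median ratio of 2.10 against 1.32, and the green curve has a median of 1.29.

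The 6 genes of the BRCA group included the strongest promoters of the set. BRIP1 (gene 83990, a helicase that binds BRCA1) had 1 hotspot over its start in each line, of 1113 bp with 44.1 in Saos-2 and of 931 bp with 75.2 in U2OS, the highest value of the 44 genes in both. BRCA1 (gene 672, chromosome 17, 43044295 to 43170327) has 2 RefSeq starts. At the inner one, which faces the start of the noncoding gene NBR2, the hotspot had 28.6 in Saos-2 (472 bp) and 74.3 in U2OS (617 bp). The outer start faces NBR1, and its hotspots were weaker, with 8.39 over the start and 15 further upstream in Saos-2 and with 14.1 and 9.39 in U2OS. Thus the strongest BRCA1 signal was at the promoter shared with NBR2, while the upstream NBR1-side site was the only BRCA1 pair with the higher value in Saos-2. U2OS had a further hotspot of 201 bp with 2.63, centred 780 bp into the gene from the inner start, with no Saos-2 overlap. Beyond these promoter windows BRCA1 had no hotspot in its span in either line.

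BARD1, the partner of BRCA1 in its ubiquitin ligase, was among the few with a higher value in Saos-2, 36 against 17.1, and it carried a second Saos-2 hotspot 560 bp into the gene with 3.16. That one was the only promoter hotspot of a member in Saos-2 without U2OS overlap. PALB2, which bridges BRCA1 and BRCA2, had 11.6 in Saos-2 and 9.36 in U2OS at a start that it shares with DCTN5. BRCA2 had 6.49 and 9.72. Both of these differences were under 2-fold.

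RBBP8 (gene 5932), which encodes the resection factor CtIP, had the largest ratio of the set, 15.1. Its 1 promoter hotspot in Saos-2 spanned 55 bp and reached 1.42, just past the lowest value in the list of 1.3. In U2OS a hotspot of 1064 bp with 21.5 covered the same start, followed by one of 171 bp with 2.67. U2OS also had 2 RBBP8 hotspots without Saos-2 overlap that lie inside the span, of 8.34 and 11.2. The Saos-2 call is lost when hotspots under 200 bp are left out or when the top 50% of each list is used, and RBBP8 is then called in U2OS only.

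All 7 genes of the MRN complex and checkpoint kinases had a promoter hotspot in both lines, against 43.3% of all protein-coding genes. The higher significance was in U2OS for each of the 7, against 66.0% of all genes called in both lines. The ratio of the 7 genes had a median of 2.62 and ran from 1.09 to 6.22. RAD50, the coiled-coil ATPase of the complex, was nearly equal, with 7.29 in Saos-2 and 7.98 in U2OS. MRE11, its nuclease, had 18.2 and 23.1, and ATM had 19.3 and 22.6 at the start it shares with NPAT. NBN, the third subunit, had 3.81 at its higher-coordinate end in Saos-2 and 20.5 in U2OS, where a second hotspot of 14.2 adjoined it. The subunits of 1 complex therefore differed in ratio, with NBN at 5.38, MRE11 at 1.27 and RAD50 at 1.09.

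ATR, the kinase that responds to single-stranded DNA, had 6.21 in Saos-2 and 17.1 in U2OS. Its effector CHEK1 had 3 hotspots in Saos-2, the strongest of 4.55, where U2OS had 1 of 1007 bp with 11.9. CHEK2, the effector of ATM, had 2 Saos-2 hotspots of 7.32 and 4.05, and a single U2OS hotspot of 1245 bp with 45.5 overlapped both. In both CHEK genes 1 U2OS call thus overlapped several Saos-2 calls. The Saos-2 calls of CHEK1 lay close together, with the second ending at 125626429 and the third starting at 125626431. Whether such calls are separate sites was not tested. Inside CHEK2 the order was the opposite: a hotspot 29.4 kb into the gene had 17 and 671 bp in Saos-2 against 2.99 and 191 bp in U2OS.

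The group of RAD51B, RAD51C, RAD51D, XRCC2, XRCC3, RAD52, RAD54L and RAD54B, which act while the strands pair, held 2 of the 3 genes without a promoter hotspot in both lines, namely RAD51B and RAD51D. RAD51D (gene 5892) had 1 promoter hotspot in U2OS, of 93 bp with 1.47 and centred at -58 bp from the start. U2OS also had 2 hotspots beyond its 3′ end, of 2.61 and 2.27, and Saos-2 had none within 10 kb of the gene. The promoter call was near the lower limit of the list, and it was lost when the U2OS list was cut to the length of the Saos-2 list. RAD51C, which works in complexes with both, had 5.13 in Saos-2 and 18.6 in U2OS. XRCC3, the partner of RAD51C, was equal at 29.3 and 29.7. XRCC2 (gene 7516), the partner of RAD51D, had the smallest ratio of all, 0.207, with 18.3 and 403 bp in Saos-2 and 3.79 and 255 bp in U2OS. These partners thus ran from the lowest ratio of the set to 3.63 for RAD51C.

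RAD52, an annealing protein, had 6.22 over its inner start in Saos-2 and 36 in U2OS, where the hotspot was 997 bp against 445 bp wide. U2OS also had a hotspot of 3.50 at -827 bp from the outer start and close to the start of ERC1, with no Saos-2 overlap. RAD54L, a motor protein that remodels the joint molecule, had 4.30 and 18.8. Its relative RAD54B had 10.2 in Saos-2 and 8.15 in U2OS, together with 3 internal hotspots in Saos-2 and 0 in U2OS.

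Among the helicases and the dissolution complex, BLM (gene 641, the helicase lost in Bloom syndrome) had 17.6 in Saos-2 and 53.5 in U2OS. TOP3A, its topoisomerase partner, had 29.1 and 46.4 at the start shared with SMCR8. RMI1 had 8.98 and 18.9, and RMI2 had 2.32 and 4.89. Each of the 4 subunits thus had the higher value in U2OS, as did 66.0% of all genes called in both lines. WRN, the Werner syndrome helicase, had 4.66 and 12.8. RECQL4 was opposite, with 1 hotspot of 4.75 and 264 bp in Saos-2 and 2 adjacent ones of 51 and 68 bp in U2OS with 1.52 and 1.96. The U2OS call for RECQL4 was lost with lists of equal length.

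The 6 nuclease genes had lower values, with medians of 4.14 and 9.88. SLX4, the scaffold for several nucleases, had 7.59 and 19.2. MUS81, a nuclease it binds, had 12.4 in both lines. EME1, the partner of MUS81, had 3.17 and 8.63. The flap nuclease FEN1 had 2.20 and 5.22, and the resection nuclease EXO1 had 4.63 and 5.81. GEN1, a resolvase, starts within 1 kb of SMC6 on the opposite strand, and the same hotspot counted for both genes, with 3.66 in Saos-2 and 11.1 in U2OS.

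The Fanconi core genes had a promoter hotspot in both lines for 7 of 7, with the higher value in U2OS for 5. Over all genes 43.3% were called in both lines, and 66.0% of those had the higher value in U2OS. FANCM, the translocase that anchors the complex, had 6.54 in Saos-2 and 25.9 in U2OS, a ratio of 3.96. FANCA had 7.33 and 9.62, and FANCG, which binds FANCA, had 4.66 and 13.6. FANCC had 4 hotspots at its 2 starts in Saos-2, none above 3.36, and 2 in U2OS of 9.23 and 9.99. FANCE had 3.53 and 5.42. FANCF and FANCL had the higher value in Saos-2: FANCF 15.4 against 7.51, and FANCL, the ubiquitin ligase subunit, 14.6 against 12.1. Only the FANCF difference reached 2-fold.

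The ubiquitylated pair FANCD2 and FANCI differed from each other in both lines. FANCD2 (gene 2177, chromosome 3, 10026437 to 10101932) had no hotspot at its start or in its span in either line. The nearest hotspot to the start was 8.09 kb away in Saos-2, with 7.68 and no U2OS overlap, and 15.1 kb away in U2OS. The other settings tried could not change this call. None of them added hotspots, and the widest promoter window, 2.5 kb, does not reach hotspots at these distances. FANCI had 10.9 at its lower-coordinate end in Saos-2 and 12 in U2OS, which added 3 narrow hotspots beside it, none above 2.01.

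SMC5 and SMC6 encode the 2 large arms of a ring complex that is known to act at telomeres in cells with recombination-based maintenance. SMC5 was among the weakest promoters of the set in both lines, with 2.44 in Saos-2 and 2.85 in U2OS, and SMC6 had the values given for GEN1. Neither gene had an internal hotspot in either line. Saos-2 had a hotspot of 12.8 beyond the 3′ end of SMC6 with no U2OS overlap.

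Most promoter hotspots of the members overlapped one in the other line, as over all genes. Of 55 distinct promoter hotspots in Saos-2, 54 were overlapped by U2OS (98.2%, interval 90.4 to 99.7%), against 80.5% for all protein-coding genes. Of 64 in U2OS, 49 were overlapped (76.6%, 64.9 to 85.3%), against 70.6%. The all-gene share thus lies inside the interval of the members for U2OS and below it for Saos-2. The 15 U2OS promoter hotspots without overlap were narrow and weak, with medians of 154 bp and 2.56, and the strongest was the NBN one of 14.2. The overlapped 49 had medians of 412 bp and 11.9. Requiring 50% of both hotspots to overlap lowered the shares to 65.5% and 56.2%, and merging hotspots under 150 bp apart raised the U2OS share to 88%. All-gene shares were not computed at these 2 settings.

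**Figure D4:**
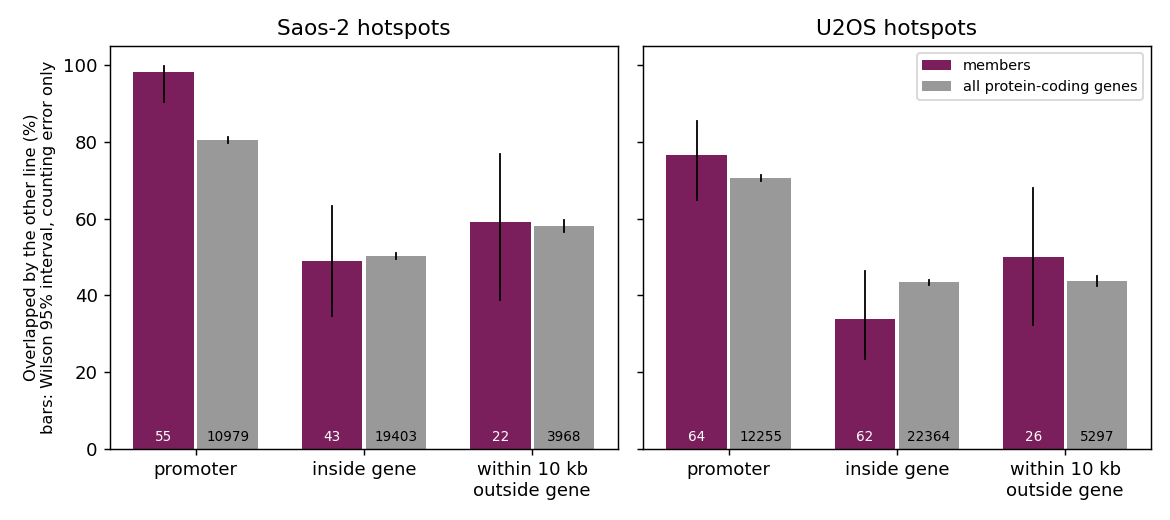
Share of hotspots (%) overlapped by at least 1 bp in the other line, by place, for the members (purple) and all protein-coding genes (grey), in Saos-2 and U2OS, 1 library each; lines are Wilson 95% intervals of counting error and the numbers at the base are hotspots. At promoters the members reach 98.2% in Saos-2 and 76.6% in U2OS, and inside the genes 48.8% and 33.9%.

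Hotspots inside the genes, away from the starts, were overlapped for smaller shares, as over all genes. Saos-2 had 43, of which 21 were overlapped (48.8%, 34.6 to 63.2%), against 50.2% over all genes. U2OS had 62, of which 21 were overlapped (33.9%, 23.3 to 46.3%), against 43.4%. At least 1 internal hotspot was found in 12 of the 44 genes in Saos-2 and 14 in U2OS, against 34.8% and 37.7% of all genes, and 26 genes had none in either line. For the overlap shares, the all-gene values lie inside the intervals of the members. The counts of genes are not matched for length: the median span was 60.5 kb for the members and 24.1 kb for all genes. The tables used give gene spans without exons, so exonic and intronic sites were not separated.

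Internal hotspots were concentrated in RAD51B, the longest of the 44 genes, which held 25 of the 43 in Saos-2 and 41 of the 62 in U2OS. Without RAD51B there were 18 and 21. All 44 genes together had 11.6 internal hotspots per Mb of span in Saos-2 and 16.7 in U2OS. Over all protein-coding genes the values were 15.7 and 18.1 per Mb. Without RAD51B, left out after seeing the data, the members had 6.34 and 7.39 per Mb. No gene was left out of the all-gene values, and gene length was not matched. Among the 7 overlapping pairs outside RAD51B the significance was higher in U2OS for 3 and in Saos-2 for 4. The strongest were the NBN pair, 31 against 20.1, and a BRIP1 pair 29.7 kb into the gene, 13.6 against 28.1. The FANCC pair had 15.4 and 17.8.

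Away from RAD51B, few unshared internal sites were strong. In Saos-2 the leading ones were in RAD54B (7.26), BRIP1 (4.53, at 1184 bp past the start) and ATM (3.31, where the gene overlaps C11orf65). In U2OS the leading one was the RBBP8 site of 11.2 at chr18:22978460-22978726. FANCM had a U2OS site of 10.4 near its 3′ end.

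RAD51B (gene 5890, chromosome 14, 67819779 to 68683096, plus strand) spans 863.3 kb and is a known breakpoint gene in benign mesenchymal tumours. No hotspot lay within 1 kb of its RefSeq starts at 67823541 and 67823592. A U2OS hotspot of 6.60 covered the outer 5′ end of the span at chr14:67819598-67819883, with no Saos-2 overlap, and counting that end as a start, a setting chosen after seeing the data, would call RAD51B in U2OS only. The strong site just upstream, 13.8 against 45.1, lies at the start of the neighbouring gene ZFYVE26. After the 5′ end, the next hotspot inside the gene lay 114.4 kb into it in both lines.

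Inside RAD51B the 2 lines shared 14 sites, whose centres were a median of 42.2 bp apart. The U2OS value was higher at 12 of the 14, with a median ratio of 2.79. The strongest shared site, at chr14:68577626-68578225 in U2OS, had 46.2 against 6.28 in Saos-2. A neighbouring one had 30 against 1.68. Another 3 neighbouring sites, in the middle stretch of the gene, had U2OS values of 29.1, 20 and 30.9 and Saos-2 values of 5.15, 6.63 and 5.54. The 2 shared sites with the higher value in Saos-2 had 8.29 against 2.08 and 7.70 against 5.15.

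The RAD51B sites of U2OS differed in number between 3 equal stretches of the gene, while those of Saos-2 were nearly equal in number. The Saos-2 sites were still not evenly spaced, since the first lay 114.4 kb into the gene. Divided into 3 equal stretches of 288 kb from the 5′ end, the gene held 9, 8 and 8 internal sites for Saos-2 and 7, 12 and 22 for U2OS. Of these, 5, 5 and 4 were overlapped by the other line in each line. The strongest unshared U2OS sites were chr14:68520924-68521415 with 27.2, chr14:68181639-68182188 with 16.8, chr14:68458939-68459381 with 13.5 and chr14:68547560-68547845 with 10.8. In Saos-2 the strongest was chr14:68089137-68089563 with 9.91, followed by chr14:67940979-67941446 with 4.91. U2OS therefore had more sites than Saos-2 in the middle and 3′ stretches and fewer in the 5′ one.

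**Figure D5:**
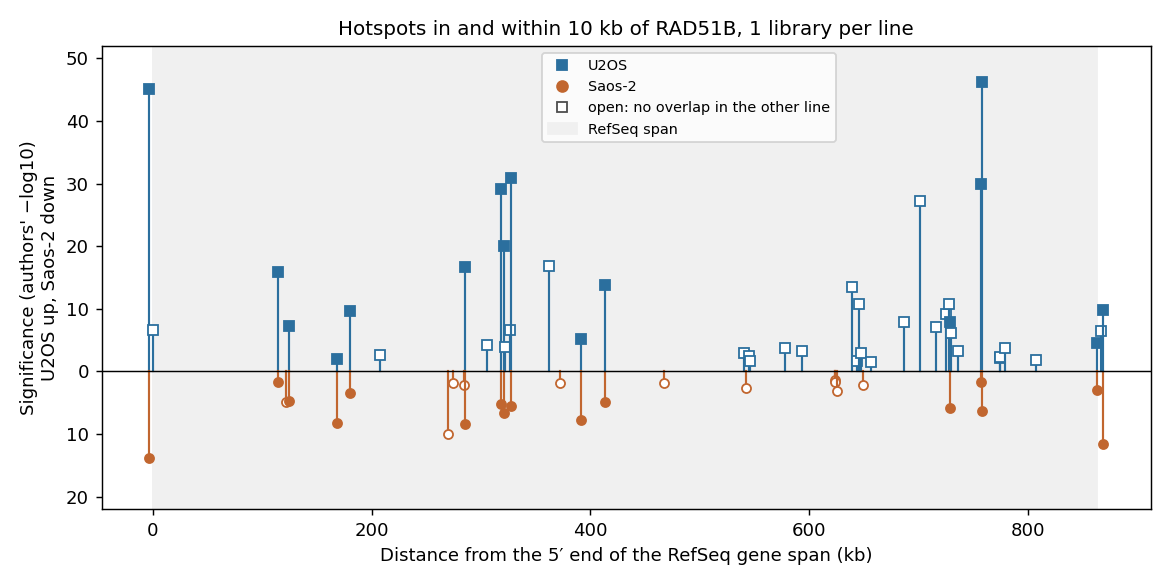
Hotspots in and within 10 kb of RAD51B by distance from the 5′ end of the gene span (kb), with the authors' −log10 significance of U2OS upward and of Saos-2 downward; filled symbols overlap a hotspot of the other line and the grey band is the gene span. U2OS has 41 internal hotspots and Saos-2 25, and in the last 288 kb of the gene 22 and 8.

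With 41 internal hotspots RAD51B ranked 2 among all 20037 protein-coding genes in U2OS, and with 25 it ranked 16 in Saos-2. Gene length is part of this count. Among the 315 genes of at least 500 kb the median was 6 internal hotspots for Saos-2 and 11 for U2OS, and RAD51B ranked 12 and 2. Its density was 29 per Mb in Saos-2 and 47.5 per Mb in U2OS, against 10.3 and 15.3 per Mb over those long genes.

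Other annotated features of the members were then compared with all genes. Of the 38 members with a RefSeq start, 20 (52.6%) had the start of another gene on the opposite strand within 1 kb, against 25.9% of all genes. Examples are BRCA1 with NBR2, ATM with NPAT, PALB2 with DCTN5, SLX4 with DNASE1, and GEN1 with SMC6. All 20 of them had a promoter hotspot in both lines, as did 15 of the 18 others, and over all genes these shares were 69.6% and 38.2%. The median ratio of U2OS to Saos-2 was 2.45 for the 20 genes and 1.54 for the 15 others, against 1.39 and 1.28 over all genes. A hotspot at such a start cannot be assigned to 1 of the 2 genes.

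Promoter letters were counted on both strands in 52 RefSeq windows of the 38 members, from 250 bases before to 50 after each start, and in 22199 windows of all protein-coding genes. The E2F letters TTTCCCGC, TTTGGCGC or TTTCGCGC were in 6 member windows (11.5%, interval 5.4 to 23%), against 3.43% of all windows, and the genes were EXO1, FANCC, FANCD2, GEN1, SMC6 and XRCC2. The ETS letters CCGGAAG were in 15 (28.8%, 18.3 to 42.3%), against 12.8%, among them ATM, ATR, BRCA2, PALB2 and RAD50. The NRF1 motif was in 11 (21.2%, 12.2 to 34%), against 10.6%. The CCAAT letters were in 20 windows (38.5%), against 34.7%, the SP letters GGGCGG in 35 (67.3%), against 56.3%, and the CRE letters TGACGTCA in 4 (7.69%), against 2.26%. GC content had a median of 64.3% in the member windows and 62.3% in all. SP letters can overlap one another, and windows of neighbouring starts share bases, though the intervals count each window separately. Counted by gene, the CCAAT letters were in 42.1% of the 38 members and in 42.1% of all genes. The shares by gene were 15.8% against 4.53% for E2F, 34.2% against 16.5% for ETS and 28.9% against 13.9% for NRF1. For SP they were 73.7% against 64.3%, and for CRE 7.89% against 3%. FANCD2 carried E2F, ETS and SP letters and had no promoter or internal hotspot in either line.

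Other genes of these pathways, from a fixed list of 30, also had promoter hotspots in most cases. There were 26 called in both lines (86.7%, 70.3 to 94.7%), 3 in Saos-2 only (BRCC3, NSMCE4A and RPA3) and 1 in U2OS only (ERCC1). Over all genes these classes held 43.3%, 4.79% and 10.1%. The ratio of the 26 genes had a median of 1.29, close to the all-gene 1.32, and 3 of the 26 were at least 2-fold higher in U2OS. Over all genes called in both lines, 27.8% were at least 2-fold higher in U2OS and 8.53% in Saos-2. HELQ, a helicase, led both lines with 42.8 and 61. SWI5, a recombination cofactor, was the 1 gene at least 2-fold higher in Saos-2, with 20.7 against 8.82. The difference between this list and the 44 genes was not tested.

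For comparison, 7 of 8 end-joining genes were called in both lines, with a median ratio of 3.13 and 6 of the 7 at least 2-fold higher in U2OS. TP53BP1, which opposes resection, had 4.72 in Saos-2 and 33.4 in U2OS. Of 7 mismatch repair genes, 6 were called in both lines, with a median ratio of 1.66 and 2 of the 6 at least 2-fold higher in U2OS. Over all genes 43.3% were called in both lines, and 27.8% of those were at least 2-fold higher in U2OS. The end-joining and mismatch repair lists are small, and differences between them were not tested.

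Hotspots outside the genes but within 10 kb were 22 for Saos-2 and 26 for U2OS, and 13 in each line were overlapped by the other (59.1% and 50%). These shares are near the 58.1% and 43.7% of all protein-coding genes. Of the outside hotspots, 8 in Saos-2 and 12 in U2OS lay within 1 kb of the start of another gene, such as VCP beside FANCG (15.1 and 26) and FKBP3 beside FANCM (9.67 and 23.5). The widest was beyond the 3′ end of FANCC, inside AOPEP, with 1543 bp and 21.5 in Saos-2 and 935 bp and 8.69 in U2OS. Over all sites within 10 kb, U2OS had more hotspots than Saos-2 for 20 genes, fewer for 11 and the same number for 13, and the median was 2 per gene in both lines.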

How the data were processed

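DNase-seq hotspots of Saos-2 and U2OS were analysed, with 1 library per line. Trimmomatic 0.38, BWA 0.7.15 and hg38 are named per the submitters' processing notes. A threshold of 0.05 (false discovery rate) stands in the names of the deposited lists. The hotspot caller, read filters and treatment of duplicates are not given in the sources used here. The deposited −log10 value of each hotspot was used as its significance; no header names it, and its minimum of 1.3 is −log10 of 0.05. The deposited score is about 10 times that value and was not used. Depth is unknown.

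Gene spans and starts came from RefSeq tables on GRCh38.p14, which has the same chromosome coordinates as hg38. Starts were given for 38 of the 44 genes. Promoter hotspots overlap 1 kb on either side of a start, internal ones overlap the span only, and outer ones lie within 10 kb. The strongest promoter hotspot stood for a gene, and overlap between lines needed 1 bp. Genes with values in the text were those without a promoter hotspot in both lines, the strongest promoters, the extreme ratios, the most hotspots, the strongest unshared internal hotspots, and a fixed list of central genes. Others are given to complete each role group. Members and lists were chosen with earlier results of these data known. The code (Python 3.11.15, pandas 2.3.3, numpy 2.4.6) was tested on simulated hotspots. Some items are not reported here.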

Additional observations from a re-analysis of the deposited data

How the results depend on the processing

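No paired analysis was possible because each line has 1 library, and for the same reason no library was left out. Of 84 values recomputed, 68 stayed within 1.5-fold of the main count or within the interval of the main share and 16 did not. All of them were recomputed for the members only. The shares over all genes at these settings are therefore unknown, and they may move as well. With the top 50% of each list, the genes with a promoter hotspot in 1 line were 2 for Saos-2 and 9 for U2OS, internal hotspots numbered 20 and 34, and 70% of the Saos-2 ones were overlapped. With lists of equal length, Saos-2 alone had 1 such gene and U2OS alone 0, so the order of the lines turned (41 genes called in Saos-2 and 40 in U2OS, against 41 and 42). With hotspots of at least 200 bp the genes called in 1 line were 1 for Saos-2 and 4 for U2OS, and Saos-2 had 27 internal hotspots. Merging under 150 bp gave 88% overlap of U2OS promoter hotspots, and 50% of both hotspots gave 65.5% (Saos-2) and 56.2% (U2OS). Settings chosen after seeing the data were the outer 5′ end as a start (2 genes in U2OS only), the internal counts without RAD51B (18 and 21), and members with a RefSeq start only, where 29 of 35 had the higher value in U2OS. The number called in both lines ranged from 29 to 41 and was 41 in the promoter windows of 500 bp and 2.5 kb. Unknown depth limits every comparison of significance between lines.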
